A study of Mus musculus with 8 samples.

Results

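The genes described here encode 30 nuclear RNA-binding proteins, the heterogeneous nuclear ribonucleoproteins (hnRNPs) outside the Hnrnpu subfamily together with FET and related proteins. They were taken by symbol from the deposited count table, where all 30 were found among 23171 genes, and all 30 passed the filter on low counts that left 14004 genes to test. The knockout libraries came from the epidermis of 4 mice lacking Hnrnpu in the epidermis only (cKO), and the others from 4 WT control mice. Every mouse of both genotypes had received imiquimod, a Toll-like receptor agonist that causes psoriasis-like inflammation in mouse skin. The labels name keratinocytes as the cell type, and the sources used here do not give the promoter behind the deletion, the deleted exons, the strain, the age or the duration of treatment.

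hnRNPs coat nascent RNA in the nucleus and steer its splicing, end formation, export and decay. Many bind short, loosely defined sequence elements, act together or against each other on the same exons, and hold their own mRNA in check through splicing into transcripts that are degraded. hnRNP U, the protein encoded by the deleted gene, is a large member that binds RNA and chromatin, and the comparison asks what the level of the other members was where Hnrnpu was deleted in inflamed epidermis.

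Libraries held 37158621 to 38865722 counts, and the 30 genes had 493 to 21961 counts each per library. Levels are given in CPM, counts scaled to library size with TMM factors. Summed marker levels in this paragraph were instead scaled by library size alone, without TMM factors. The keratinocyte markers Krt5, Krt14, Krt1, Krt10, Trp63, Dsp and Perp were all detected. Their summed level was 70769 to 86703 CPM in cKO and 72989 to 94512 CPM in WT. None was called, and Krt14, at 67.0% of WT, had an unadjusted p of 0.0415. Of 6 hair follicle markers, all 6 had an unadjusted p below 0.05 and 3 were called higher and 1 lower, with summed levels of 2414 to 3507 CPM for cKO and 1156 to 1789 CPM for WT. Of 6 melanocyte markers 5 had an unadjusted p below 0.05 and 1 was called higher, with sums of 53.1 to 113 CPM for cKO and 32.7 to 48.2 CPM for WT. Of 6 sebocyte markers 5 had an unadjusted p below 0.05 and 1 was called higher, with sums of 940.03 to 3262 CPM for cKO and 591 to 1094 CPM for WT. Most of the hair follicle sum was Krt79, with means of 2763 CPM in cKO and 1432 CPM in WT. Most of the sebocyte sum was Scd1, with means of 1467 CPM in cKO and 584 CPM in WT. None of the T cell, myeloid, neutrophil, Langerhans, fibroblast, endothelial and muscle markers was called by edgeR, although 1 T cell, 1 myeloid and 1 Langerhans marker had an unadjusted p below 0.05. Summed levels of the genes listed as neutrophil markers were 741 to 4132 CPM for cKO and 1714 to 7295 CPM for WT. Nearly all of this came from S100a8, with means of 2117 CPM in cKO and 4320 CPM in WT. Which cells the S100a8 RNA came from was not tested, so this sum is not a measure of neutrophils. Cxcr2 averaged 14.3 CPM in cKO and 25.7 CPM in WT, and Csf3r 0.217 CPM and 0.534 CPM. Summed fibroblast levels were at most 3.50 CPM for cKO and 9.66 CPM for WT. No marker present in the table was at 0 in all libraries, and 2 T cell markers and 1 neutrophil marker had no entry there. Their part in the values below was not tested, and in this bulk RNA fewer cells of a type and less RNA per cell cannot be told apart.

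The deleted gene itself stood at 190 (replicate 1), 373, 355 and 312 CPM in cKO, against 455, 424, 431 and 439 CPM in WT. The genotypes did not overlap, and cKO replicate 1 was the lowest. The fitted level of Hnrnpu was 0.703-fold that of WT (edgeR adjusted p = 0.191, exact permutation p = 0.0286). Counts cover the whole gene, so reads from any exons left undeleted are included. Their share in the remaining level was not tested.

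The H/F family gave the members with the smallest p, and its sequences are shown first because they bear on how far reads of these genes can be told apart. Its proteins bind runs of guanine through quasi-RNA recognition motifs. The coding sequence of Hnrnph1 was 85.5% identical to that of Hnrnph2, 78% to Hnrnpf and 76.6% to Hnrnph3 over the aligned bases. The window below is the stretch of 90 coding bases most alike among the 4 genes. It covers coding bases 349 to 438 of Hnrnph1 (chromosome 11, plus strand), Hnrnph2 (chromosome X, plus strand) and Hnrnpf (chromosome 6, plus strand), and bases 64 to 153 of Hnrnph3 (chromosome 10, minus strand), in GENCODE M21 transcripts on GRCm38. It is written 5′ to 3′ along the mRNA, and capitals mark bases that differ from Hnrnph1.
Hnrnph1: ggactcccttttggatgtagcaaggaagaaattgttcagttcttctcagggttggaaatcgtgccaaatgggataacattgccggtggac
Hnrnph2: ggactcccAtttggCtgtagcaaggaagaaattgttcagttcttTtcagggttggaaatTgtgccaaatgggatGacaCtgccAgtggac
Hnrnpf: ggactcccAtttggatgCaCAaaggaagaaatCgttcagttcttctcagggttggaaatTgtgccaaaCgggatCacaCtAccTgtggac
Hnrnph3: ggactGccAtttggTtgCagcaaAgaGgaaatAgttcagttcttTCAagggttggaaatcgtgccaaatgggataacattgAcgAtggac
Even in this window Hnrnph2 differed from Hnrnph1 at 7 bases, Hnrnpf at 11 and Hnrnph3 at 12. The longest run without a difference over the whole coding sequence was 34 bases with Hnrnph2, 26 with Hnrnpf and 36 with Hnrnph3. Of all fragments of 50 bases in Hnrnph1 transcripts, 1.77% occurred in a transcript of another gene, and none of those genes belonged to the H/F family. Here and below both strands of the other transcripts were searched, so exons that overlap on the opposite strand count as shared. The sources used here do not give the read length.

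None of the 30 genes was called at an adjusted p below 0.05 by the edgeR quasi-likelihood test, where 1.32% of all tested genes were (0.671% higher and 0.65% lower). Limma-voom also called 0, where it called 1.21% of all genes. DESeq2 called 2 of the 30, Hnrnph1 and Hnrnph3, where it called 8.1% of all genes, and edgeR without cKO replicate 2 called 2 of the 30, Hnrnph1 and Hnrnpd, where it called 3.55% of all genes. The members' share was thus below that of all genes under DESeq2 and above it without cKO replicate 2, resting on 2 genes in each case. At an unadjusted p below 0.05 there were 5 members (16.7%), 2 higher and 3 lower in cKO, where 18.6% of all tested genes passed (9.87% higher and 8.71% lower). In 3 members (10%) the 4 cKO libraries lay wholly on 1 side of the 4 WT libraries, where this held for 11.1% of all tested genes (5.26% higher and 5.82% lower). The members' shares on both measures were close to those of all genes. The fold change was below 1 in 17 members (56.7%), where it was in 48.1% of all tested genes. The median log2 fold change over the members (cKO over WT) was -0.03, against 0.01 over all tested genes. Scaling by library size alone turned the members' median to 0.03 and that of all tested genes to 0.07.

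**Figure D1:**
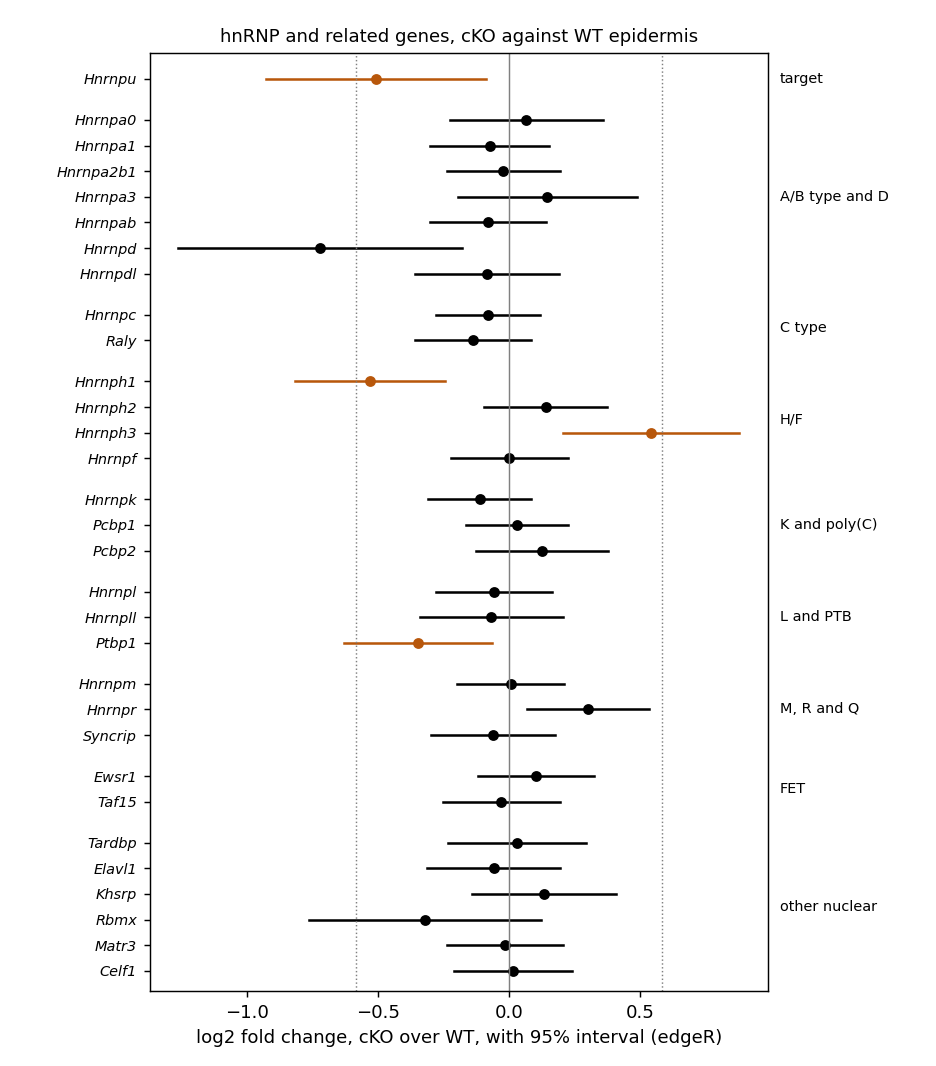
Fitted log2 fold change (cKO over WT, x axis) of Hnrnpu and the 30 genes, grouped by protein type, with 95% confidence intervals from edgeR over 4 libraries per genotype. Orange marks genes whose cKO and WT libraries do not overlap, and dotted lines mark 1.5-fold; Hnrnph1, Hnrnph3 and Ptbp1 are the non-overlapping members.

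Hnrnph1, which promotes or represses exons that carry guanine runs, stood at 125, 185, 171 and 149.6 CPM in cKO replicates 1 to 4, against 243, 219, 239 and 211 CPM in WT. Every cKO library was below every WT library. The lowest was cKO replicate 1, which also had the least Hnrnpu. That library was the lowest of the cKO libraries in 6 members (20%), where it was in 21.7% of all tested genes. A link between the levels of Hnrnpu and Hnrnph1 was not tested. The fitted level was 69.2% of WT (log2 fold change -0.53 ± 0.13 SE, edgeR adjusted p = 0.0704, exact permutation p = 0.0286, the smallest possible here). By DESeq2 the adjusted p was 0.0061, by edgeR without cKO replicate 2 it was 0.0383, and over all 18 alternatives it ran from 0.0061 to 0.162. Leaving out 1 library at a time gave log2 fold changes of -0.60 to -0.43.

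Hnrnph3, a shorter relative, had a positive fold change. It stood at 27.3, 20.8, 21.1 and 27.3 CPM in cKO, against 18.1, 18.6, 16.4 and 13.2 CPM in WT. The genotypes did not overlap, although cKO replicates 2 and 3 lay close above the highest WT library. The fitted level was 1.46-fold that of WT (0.54 ± 0.15 SE, edgeR adjusted p = 0.102, exact permutation p = 0.0286). DESeq2 gave an adjusted p of 0.0296, and the range over the alternatives was 0.0296 to 0.234. Its exons overlap those of Rufy2 on the opposite strand over 115 bases, and the strand setting of the counting is not known.

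The other H/F genes lay closer to WT. Hnrnph2 stood at 125, 107, 96.4 and 124 CPM in cKO, against 106, 101, 106 and 97.3 CPM in WT, and its groups overlapped (log2 fold change 0.14, 95% interval -0.09 to 0.38). Hnrnpf averaged 248 ± 21.4 CPM for cKO and 248 ± 19.4 CPM for WT (SD, n = 4 each), with an interval from 0.858-fold to 1.17-fold. In GENCODE M21 transcripts Hnrnpf had the largest share of sequence in common with other genes among the members. Of its 3128 fragments of 50 bases there, 61.9% also occur in transcripts of other genes, so its value is uncertain. The deposited values imply a length of 9608 bases for Hnrnpf, so this share need not hold for the gene model that was counted.

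Ratios between paralogs within a library do not depend on how libraries are scaled. Among 11 ratios computed, that of Hnrnph1 to Hnrnph2 (FPKM, fragments scaled for gene length and depth, + 0.1) was 0.403, 0.692, 0.714 and 0.487 in cKO, against 0.918, 0.872, 0.903 and 0.874 in WT. The ratio was below every WT library in all 4 cKO libraries, and the WT values were nearly alike. The log2 ratio was -0.84 ± 0.40 in cKO and -0.17 ± 0.04 in WT (SD, n = 4 each), with an exact permutation p of 0.0286, or 0.105 adjusted over the 11 ratios. Hnrnph1 to Hnrnpf behaved likewise, with log2 ratios of -0.02 ± 0.30 in cKO and 0.52 ± 0.18 in WT (exact permutation p = 0.0286, adjusted 0.105). Both ratios share Hnrnph1 and are not separate evidence.

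**Figure D2:**
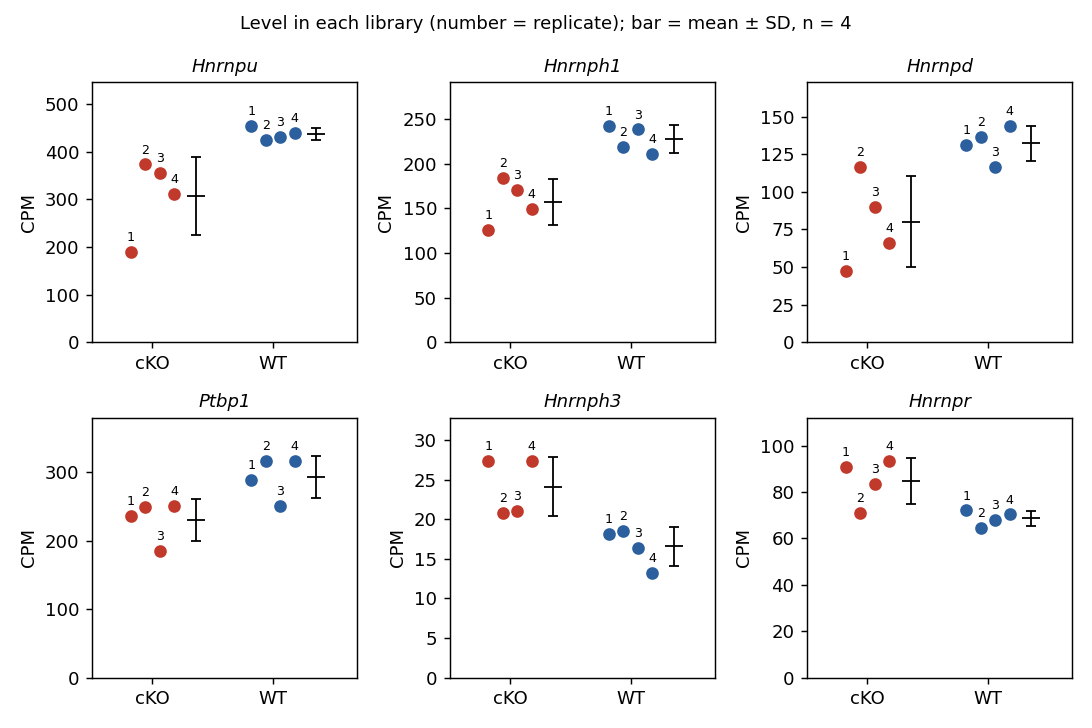
Level (CPM, y axis from 0) of Hnrnpu and of the 5 members with an unadjusted p below 0.05, in each cKO and WT library (points, numbered by replicate) with the mean ± SD of 4 beside them. Hnrnph1 and Ptbp1 lie lower and Hnrnph3 lies higher in all cKO libraries, while Hnrnpd and Hnrnpr overlap at their edges.

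Among A/B-type proteins and the D group, which carry paired RNA recognition motifs and a glycine-rich tail, Hnrnpd had the widest difference. Hnrnpd encodes AUF1, a protein that binds AU-rich elements of cytokine and early-response mRNAs and mostly speeds their decay. It stood at 47.1, 117, 90.1 and 66.3 CPM in cKO, against 131, 137, 117 and 144 CPM in WT. cKO replicate 2 lay just above WT replicate 3, and cKO replicates 1 and 4 were the lowest libraries. The log2 fold change was -0.72 ± 0.24 SE (95% interval -1.27 to -0.18, edgeR adjusted p = 0.157, exact permutation p = 0.0571). Without cKO replicate 2 it was -0.95 with an adjusted p of 0.0434, the lowest over the alternatives, which reached 0.322. Hnrnpd had the largest spread between libraries of 1 genotype among the members, a coefficient of variation of 37.6% in cKO against 8.72% in WT. It overlaps the antisense gene Gm17092 over 385 exonic bases.

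Hnrnpdl, the closest paralog of Hnrnpd and also a binder of AU-rich RNA, stood at 107, 154, 123 and 121 CPM in cKO, against 144, 129.9, 122 and 140.2 CPM in WT. The groups overlapped, with cKO replicate 1 lowest. The FPKM ratio of Hnrnpd to Hnrnpdl was 0.230, 0.393, 0.380 and 0.284 in cKO, against 0.472, 0.544, 0.497 and 0.531 in WT. No cKO ratio reached a WT ratio (exact permutation p = 0.0286, 0.105 adjusted over the 11 ratios). Against Hnrnpab the log2 ratio of Hnrnpd was -4.51 ± 0.62 in cKO and -3.80 ± 0.17 in WT, with overlap (exact permutation p = 0.0571, n = 4 each).

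The abundant A/B-type genes were close to WT. Hnrnpa1, a general repressor of exon inclusion that also packages mRNA for export, averaged 293 ± 30.4 CPM for cKO and 309 ± 18.8 CPM for WT (SD, n = 4 each), with an interval of 0.811-fold to 1.11-fold. Hnrnpa2b1, which also takes part in RNA transport and in reading of methylated adenosine, averaged 511 ± 40.8 CPM for cKO and 519 ± 35.6 CPM for WT, with an interval of 0.847-fold to 1.14-fold. The ratio of Hnrnpa1 to Hnrnpa2b1 overlapped between genotypes (exact permutation p = 0.629). Hnrnpab, the most abundant member per gene length, averaged 196 ± 19.6 FPKM in cKO and 199 ± 18.6 FPKM in WT. Hnrnpa0, which binds AU-rich elements of inflammatory mRNAs, stood at 255, 193, 172 and 235 CPM in cKO, against 207, 199, 194 and 217 CPM in WT, with cKO libraries both above and below the WT range. Hnrnpa3 showed the same spread, at 69.5 to 111 CPM for cKO and 77.3 to 88.2 CPM for WT. Of 50-base fragments of Hnrnpa1 and Hnrnpa3, 28.2% and 27.1% occur in transcripts of other genes, so these values are uncertain. This share was above 10% in 12 members, with a median of 5.62% over all members. Besides Hnrnpa1, Hnrnpa3, Hnrnpf and Ptbp1, these were Pcbp2 (31.5%), Hnrnpab (23.8%), Tardbp (21%) and Hnrnpk (17.8%). The others were Matr3 (16.9%), Hnrnph2 (15.9%), Ewsr1 (15.4%) and Hnrnpm (13.5%). The gene with most matches was an overlapping gene on the opposite strand for Hnrnpab (Phykpl, 809 exonic bases), Tardbp (Masp2) and Pcbp2 (Map3k12). For such matches the limit depends on the strand setting of the counting, which is not known.

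Ptbp1, the polypyrimidine tract-binding protein that represses exons and limits its neuronal paralog through splicing, stood at 237, 249, 185 and 251 CPM in cKO, against 289, 317, 251 and 316 CPM in WT. The groups did not overlap, but cKO replicate 4 and WT replicate 3 were almost equal. The log2 fold change was -0.35 ± 0.13 SE (95% interval -0.63 to -0.06, edgeR adjusted p = 0.187, exact permutation p = 0.0286), and the adjusted p ran from 0.114 to 0.383 over the alternatives. Ptbp1 overlaps 3 genes on the opposite strand. Of its 50-base fragments, 18.3% occur in other genes on either strand, and those 3 are among the genes with most matches. These limits are thus not separate. Hnrnpl, which binds CA repeats, averaged 234 ± 26.0 CPM for cKO and 243 ± 7.01 CPM for WT (SD, n = 4 each). Hnrnpll, known for directing Cd45 splicing in T cells, averaged 40.3 ± 5.51 CPM for cKO and 42.3 ± 3.97 CPM for WT. The ratio of Hnrnpl to Hnrnpll was alike in both genotypes (log2 difference 0.01, exact permutation p = 0.971).

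Hnrnpr and Syncrip (hnRNP Q) are close paralogs with acidic ends that act in RNA transport and translation. Hnrnpr stood at 90.7, 71.1, 83.5 and 93.3 CPM in cKO, against 72.1, 64.6, 67.9 and 70.3 CPM in WT. Only cKO replicate 2 fell inside the WT range. The log2 fold change was 0.30 ± 0.10 SE (95% interval 0.07 to 0.53, edgeR adjusted p = 0.166, exact permutation p = 0.0571), and the lowest adjusted p over the alternatives was 0.0513. Syncrip averaged 213 ± 17.4 CPM for cKO and 223 ± 22.3 CPM for WT (SD, n = 4 each). The log2 FPKM ratio of Hnrnpr to Syncrip was -1.47 ± 0.18 in cKO and -1.82 ± 0.12 in WT (exact permutation p = 0.0571, adjusted 0.126). Hnrnpm, which binds GU-rich RNA and acts in splicing, averaged 208 ± 19.3 CPM for cKO and 208 ± 3.76 CPM for WT, with an interval of 0.872-fold to 1.16-fold.

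**Figure D3:**
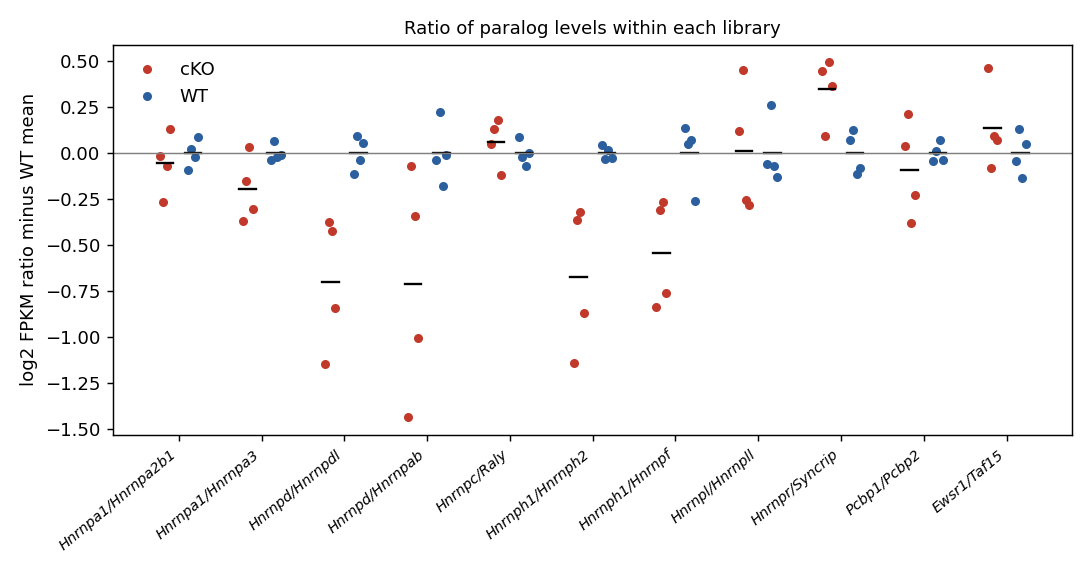
Log2 FPKM ratio of 11 paralog pairs in each library (points) minus the WT mean of that pair (y axis), with cKO left of WT and bars at the group means. The cKO points of Hnrnpd/Hnrnpdl, Hnrnph1/Hnrnph2 and Hnrnph1/Hnrnpf lie below all WT points, and the other 8 pairs overlap.

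The intervals of the C-type and KH-domain members all lay within 1.5-fold of WT. Hnrnpc, which binds uridine tracts on nascent transcripts and keeps cryptic exons out of mRNA, averaged 181 ± 10.7 CPM for cKO and 192 ± 13.1 CPM for WT (SD, n = 4 each). Its relative Raly averaged 112 ± 11.4 CPM for cKO and 123 ± 7.16 CPM for WT. Hnrnpk, a binder of cytosine-rich RNA and DNA, averaged 502 ± 31.5 CPM for cKO and 543 ± 25.2 CPM for WT, with an interval of 0.807-fold to 1.06-fold. Pcbp1, an intronless poly(C)-binding relative, averaged 275 ± 21.2 CPM for cKO and 269 ± 5.41 CPM for WT, with an interval of 0.892-fold to 1.17-fold. Pcbp2 stood at 272, 224, 300.4 and 309 CPM in cKO, against 258, 246, 243 and 266 CPM in WT, so that 3 cKO libraries lay above and 1 below the WT range. Pcbp2 shares 1573 exonic bases with Map3k12 on the opposite strand.

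Of the FET proteins, which couple transcription to splicing, Ewsr1 averaged 179.6 ± 13.5 CPM for cKO and 167 ± 14.4 CPM for WT (SD, n = 4 each). Taf15 averaged 71.2 ± 7.51 CPM for cKO and 72.6 ± 4.54 CPM for WT.

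Among the remaining nuclear RNA-binding proteins, Rbmx had the lowest mean FPKM of the members over all libraries, at 6.89 ± 2.01 FPKM in cKO and 8.27 ± 1.18 FPKM in WT, where Hnrnph3 and Hnrnpr were lower. Rbmx, the X-linked hnRNP G that acts in splicing and chromatid cohesion, stood at 17.9, 29.6, 33.1 and 20.6 CPM in cKO, against 36.6, 32.6, 27.7 and 29.6 CPM in WT. cKO replicates 1 and 4 were below every WT library and the others within the WT range (log2 fold change -0.32 ± 0.20 SE, edgeR adjusted p = 0.417). Tardbp, whose protein binds UG repeats and silences cryptic exons, averaged 249.7 ± 37.1 CPM for cKO and 245 ± 13.6 CPM for WT (SD, n = 4 each). It shares 1817 exonic bases with Masp2 on the opposite strand. Matr3, a nuclear matrix protein, stood at 111 to 128 CPM for cKO and 107 to 135 CPM for WT. Celf1, which binds GU-rich elements in splicing and decay, averaged 107 ± 8.63 CPM for cKO and 106 ± 9.55 CPM for WT.

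The opposing regulators of AU-rich mRNAs were both near WT. Elavl1, which encodes the stabilising protein HuR, stood at 65.0 to 86.2 CPM for cKO and 71.0 to 85.1 CPM for WT (log2 fold change -0.06, 95% interval -0.31 to 0.20). Khsrp, whose KH-domain product promotes decay, stood at 94.9, 69.1, 69.9 and 89.6 CPM in cKO, against 71.4, 74.6, 71.4 and 77.7 CPM in WT. Its replicates 1 and 4 in cKO lay above all WT libraries and replicates 2 and 3 below them.

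The confidence intervals bound how far most members could differ. In 25 of the 30 (83.3%) the edgeR 95% interval lay within 1.5-fold of WT in either direction, where this held for 46.2% of all tested genes. It held for 70.7% of the 5496 tested genes with a mean FPKM at least that of Rbmx. The 5 members outside were Hnrnph1, Hnrnph3, Hnrnpd, Ptbp1 and Rbmx. Within 1.2-fold lay the intervals of 7 members (23.3%), Hnrnpa2b1, Hnrnpf, Hnrnpm, Pcbp1, Taf15, Matr3 and Celf1. The same held for 5.59% of all tested genes and 10.9% of those 5496 genes, which have a lower bound in level but were not matched to the members. The median absolute log2 fold change was 0.08 over the members and 0.14 over those 5496 genes. An adjusted p above the threshold does not show equal levels. The median SE of the log2 fold change was 0.10 for the members, 0.13 for those 5496 genes and 0.18 for all tested genes.

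The pool of hnRNP transcripts as a whole held similar shares of counts in both genotypes. The 30 genes took 0.576%, 0.526%, 0.557% and 0.635% of counts in cKO, against 0.602%, 0.551%, 0.541% and 0.594% in WT. The mean was 0.574 ± 0.0460% in cKO and 0.572 ± 0.0306% in WT (SD, n = 4 each), and the ranges overlapped. Per gene length, levels spanned 7.58 FPKM for Rbmx to 197 FPKM for Hnrnpab over all libraries, with a median of 29.4 FPKM. Hnrnpab ranked first in both genotypes. Hnrnph1 ranked 19th of the 30 in cKO and 13th in WT, and Hnrnpd 29th in cKO and 23rd in WT.

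**Figure D4:**
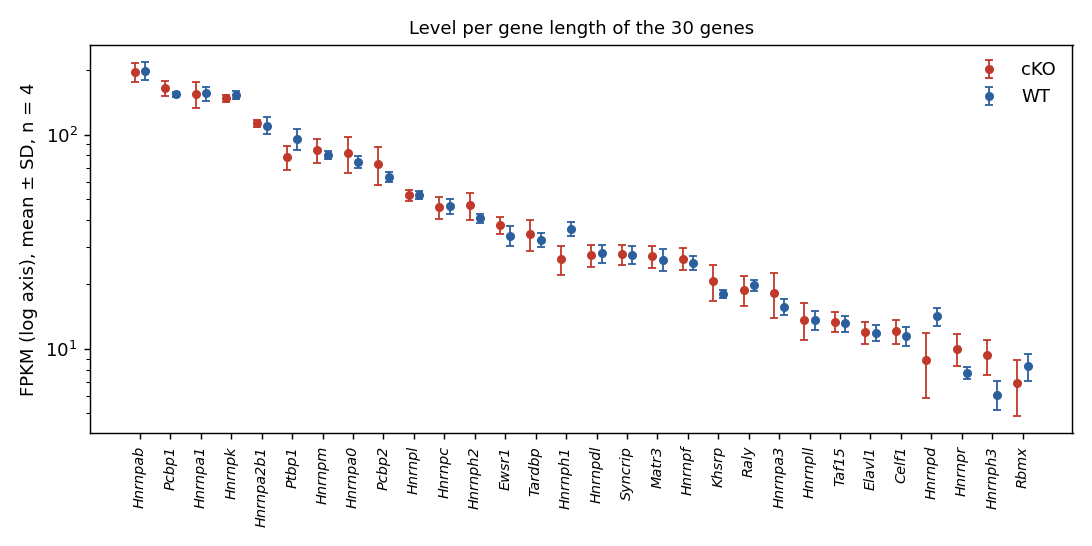
Mean FPKM ± SD of 4 libraries (y axis, log scale) of the 30 genes in cKO (left point of each pair) and WT, ordered by the mean over all libraries. Levels run from 7.58 FPKM for Rbmx to 197 FPKM for Hnrnpab, and the points separate most for Hnrnpd, Hnrnph1 and Hnrnph3.

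Most members varied more among cKO than among WT libraries. The coefficient of variation was larger in cKO for 24 of 30 members (80%), with medians of 11.4% in cKO and 6.76% in WT. The same held for 74.5% of the 5496 genes with a mean FPKM at least that of Rbmx, with medians of 13.98% in cKO and 9.07% in WT.

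Gene counts do not separate isoforms, which matters for genes that limit their own mRNA by splicing. In GENCODE M21, 14 of the 30 members (46.7%) have an annotated transcript subject to nonsense-mediated decay, against 28% of 12492 tested protein-coding genes. Hnrnpd has 4 such transcripts, Ptbp1 has 3, Hnrnph3 and Hnrnpr have 1 each and Hnrnph1 has 0. A retained-intron transcript is annotated for 19 members (63.3%), against 58.3% of those genes. No gene of 14 nonsense-mediated decay factors was called by edgeR, with 1 at an unadjusted p below 0.05 and 1 called by DESeq2 (median log2 fold change 0.01, against 0.01 over all tested genes). That gene was Smg8, a regulator of the kinase that marks the decay complex, at 17.3 ± 2.23 CPM for cKO and 24.3 ± 4.01 CPM for WT (SD, n = 4 each; -0.49 ± 0.15 SE, edgeR adjusted p = 0.121, and 0.0414 by DESeq2). Next was Upf3b, a factor that links the exon junction complex to decay, at 0.28 ± 0.13 SE (edgeR adjusted p = 0.283).

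Counts in the companion lists are to be read against the 18.6% of all tested genes with an unadjusted p below 0.05 and the 8.1% that DESeq2 called. Of 28 tested other nuclear RNA-binding protein genes edgeR called 0, with 5 at an unadjusted p below 0.05, and DESeq2 called 2 (median log2 fold change -0.02). Among them Khdrbs3, a STAR-family splicing regulator, stood at 2.41 ± 0.428 CPM for cKO and 1.14 ± 0.422 CPM for WT (SD, n = 4 each; edgeR adjusted p = 0.11, and 0.011 by DESeq2). Of 11 genes for nuclear import and arginine methylation of hnRNPs 0 were called by edgeR or DESeq2, with 1 at an unadjusted p below 0.05 (median -0.07). Prmt7, an arginine methyltransferase, averaged 24.0 ± 1.60 CPM for cKO and 28.3 ± 1.49 CPM for WT (edgeR adjusted p = 0.197). Tnpo1, the transportin that carries hnRNP A1 into the nucleus, averaged 119 ± 12.5 CPM for cKO and 133 ± 12.9 CPM for WT (adjusted p = 0.463).

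Paralogs of members that are mostly restricted to other tissues were mostly at low levels, apart from Ptbp3 and Rbmxl1. Of 18 listed, 14 were in the table and 9 were tested, and edgeR called 0, with 2 at an unadjusted p below 0.05, while DESeq2 called 2 (median log2 fold change 0.10). Ptbp3, a polypyrimidine tract-binding relative of Ptbp1, averaged 432 ± 56.5 CPM for cKO and 511 ± 27.0 CPM for WT (SD, n = 4 each), lower in every cKO library (edgeR adjusted p = 0.288). Celf5 stood at 2.86, 1.60, 1.13 and 2.02 CPM in cKO, against 0.708, 0.525, 0.528 and 0.161 CPM in WT. Celf4 stood at 3.72, 2.58, 2.22 and 3.54 CPM in cKO, against 0.813, 1.13, 1.83 and 1.66 CPM in WT. Both Celf genes, known mainly from brain, were higher in every cKO than in any WT library (edgeR adjusted p = 0.0652 for Celf5 and 0.101 for Celf4, and 7.05e-04 and 0.00773 by DESeq2).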

How the data were processed

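The authors deposited raw counts by gene symbol, as whole numbers, and FPKM values for the same 8 libraries. HISAT2 and HTSeq are named in the submitters' processing notes; the sources used here do not give versions, build, annotation or strandedness. For all 20863 genes that could be compared, the deposited FPKM equals the count scaled by 1 length per gene and the column total (relative tolerance 1e-04). FPKM was used for levels between genes and for paralog ratios.

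Counts were filtered with filterByExpr, scaled with TMM factors (0.934 to 1.08) and tested with the edgeR 4.0.16 quasi-likelihood test (R 4.3.3), cKO against WT with no covariate. P-values were Benjamini-Hochberg adjusted over 14004 genes, and a gene is called below 0.05. Standard errors and 95% intervals follow from the F statistic. Exact permutation tests were two-sided over all splits of 4 against 4, which cannot give a p below 0.0286. The members, lists, ratios and alternatives were chosen with earlier results of these data known. All members are named; those that did not overlap, had an unadjusted p below 0.05, or were extreme in level or spread are given per library, as are some others chosen after their values were seen. From each companion list, the 2 genes of smallest p are named, except for 1 result that is not reported here, and Ptbp3 was added after its values were seen.

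Alternatives were RLE factors, library size only, DESeq2 1.42.0, limma-voom (limma 3.58.1), other filters, limma on log2(FPKM + 1) and log2(FPKM + 0.1), a replicate block and leaving out each library. The test was tried on simulated counts with known fold changes before use. It called 9% of 1.5-fold and 46% of 2-fold changes, each set in 100 genes drawn from all tested genes. Of 56 genes called, 1 had no change set, and the 95% intervals held the true value for 95.1% of genes. Most changes of 1.5-fold set in genes drawn from all tested genes were thus not called. The members had a smaller median SE (0.10, against 0.18 for all tested genes), so these shares need not hold for them. Replicate pairs differed beyond sampling noise (chi-square per degree of freedom 47.9 to 247). Sequences come from GENCODE M21 transcripts, taking the longest open reading frame of protein-coding transcripts as coding sequence; the authors' build is unknown, so no genomic coordinates are printed.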

Additional observations from a re-analysis of the deposited data

Results flagged for a closer look

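Among 62 groups of 4 libraries checked (30 members and Hnrnpu in each genotype), 2 held a library far from the other 3 by Dixon's criterion, fewer than the 1 in 20 that chance gives. Hnrnpa1 in WT replicate 3 was 280.9 CPM, where the other WT libraries held 315 to 323 CPM. Hnrnpm in WT replicate 1 was 213 CPM, where the other WT libraries held 205 to 206 CPM.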

How the results depend on the processing

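The count of called members was 0 in the edgeR test and in all alternatives but DESeq2, which called 2 (Hnrnph1 and Hnrnph3), and edgeR without cKO replicate 2, which called 2 (Hnrnph1 and Hnrnpd); leaving out single libraries gave 0 to 2. DESeq2 called 2 of the paralogs of members, 2 of the other RNA-binding proteins and 1 decay factor, where edgeR called 0; leaving out single libraries gave 0 to 2 for the other RNA-binding proteins (2 without cKO replicate 2). Over all genes 185 were called, against 1294 by DESeq2, 349 without a count filter, 19 by limma on log2(FPKM + 1) without a filter, and 8 to 506 when leaving out single libraries. The cause of these differences was not tested. With the replicate number as a block 216 genes and 0 members were called; same-numbered libraries did not deviate together (correlations -0.10, 0.13, 0.10 and 0.19), not every library correlated best with its own number, and blocked exact tests of the ratios cannot go below 0.125. The count of members with an interval within 1.5-fold was 25, 23 to 26 when leaving out single libraries and 26 with the block. Of 540 fold changes of members under alternatives, 49 had the other sign, in 12 members that lay between -0.07 and 0.07 on the log2 scale, and these turned values lay between -0.05 and 0.06.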

Other observations

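The cKO libraries differed among themselves in a way that several members followed. The second principal component of log2 CPM over all tested genes, with 26.1% of the variance, put cKO replicates 1 and 4 at 36.7 and 56.8, cKO replicates 2 and 3 at -35.8 and -27.7, and WT libraries between -12.4 and 3.30. In 13 of 30 members (43.3%) cKO replicates 1 and 4 were both above cKO replicates 2 and 3, where this held for 25.9% of all tested genes, and Hnrnpa0, Hnrnpa3, Hnrnph2, Hnrnpr and Khsrp were among them. In 4 members (13.3%) both were below, where 28.1% of all tested genes were, and these were Hnrnpd, Hnrnpdl, Hnrnph1 and Rbmx. This pattern was seen after the values were examined and was not tested.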
